A study of Mus musculus with 6 samples.

Results

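A set of 10 genes of neutrophils and of the chemokines that attract them were followed across 6 subcutaneous tumors. The set was defined by gene symbol as Cxcl1, Cxcl2, Cxcl3 and Cxcl5, their receptor Cxcr2, and the neutrophil genes S100a8, S100a9, Csf3r, Retnlg and Ly6g. Each of the 10 symbols matched 1 row among the 55487 genes of the count table. The tumors were grown from CT26.WT, a mouse colon carcinoma line of BALB/c origin, in young male immunocompetent BALB/c mice. Tumors of the IFN-γ group (n = 3) came from mice given interferon-γ through the tail vein every other day, and those of the control group (n = 3) from mice given PBS. All 6 tumors came from 1 wild-type cell line, and whole tumor tissue was sequenced, so the RNA of carcinoma cells and of host cells was mixed. In such bulk samples, fewer cells of a type and less RNA per cell cannot be told apart. The labels number the tumors but do not state that each came from a separate mouse, so p-values measure the spread between these samples.

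Neutrophils are short-lived granulocytes that leave the blood toward chemokines carrying a glutamate-leucine-arginine motif. In the mouse, Cxcl1, Cxcl2, Cxcl3 and Cxcl5 are such chemokines, and they act on the receptor Cxcr2. Their genes are known as targets of NF-κB, which tumor cells, fibroblasts and macrophages activate in inflammation. Csf3r is the receptor for the granulocyte growth factor Csf3 and is also found on monocytes. S100a8 and S100a9 form calprotectin, a calcium-binding protein abundant in neutrophils and also made by stressed keratinocytes. Retnlg encodes a secreted resistin-like protein of neutrophils, and Ly6g is the surface antigen by which mouse neutrophils are usually recognized.

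The 4 chemokine genes lie in 1 cluster on the plus strand of chromosome 5 (GRCm38, the same assembly as mm10, GENCODE M21 annotation). Cxcl5 (ENSMUSG00000029371) spans 90759360 to 90761624, Cxcl3 (ENSMUSG00000029379) 90786103 to 90789600, Cxcl1 (ENSMUSG00000029380) 90891241 to 90893115, and Cxcl2 (ENSMUSG00000058427) 90903871 to 90905938. S100a8 (90668978 to 90670035) and S100a9 (90692632 to 90695721) are neighbors on chromosome 3. Csf3r lies on chromosome 4 (126024550 to 126044440), Cxcr2 on chromosome 1 (74153989 to 74161246), Ly6g on chromosome 15 (75155240 to 75159126) and Retnlg on chromosome 16 (48872621 to 48874496). All 10 are annotated as protein-coding.

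The RefSeq promoter table (GRCm38.p6) held windows for 9 of the 10 genes. It held none for Cxcl5, the remaining ligand, which was therefore not searched. The 150 bases before the start sites of Cxcl1 (chr5:90891095-90891244), Cxcl2 (chr5:90903749-90903898) and Cxcl3 (chr5:90785951-90786100) are shown because Cxcl3 had a fold change of opposite sign to those of the other ligands. No ligand's fold change passed the adjusted threshold in edgeR. The ligands were set against Cxcl3 only through the ratio of Cxcl1 to Cxcl3, by a permutation test that cannot give a p under 0.1. All sequences shown are on the plus strand, and capitals mark matches to an NF-κB pattern, GGG and TTTCC with any 2 bases between them, on either strand.
Cxcl1: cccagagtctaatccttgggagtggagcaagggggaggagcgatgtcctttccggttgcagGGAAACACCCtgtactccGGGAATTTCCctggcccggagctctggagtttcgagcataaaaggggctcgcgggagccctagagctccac
Cxcl2: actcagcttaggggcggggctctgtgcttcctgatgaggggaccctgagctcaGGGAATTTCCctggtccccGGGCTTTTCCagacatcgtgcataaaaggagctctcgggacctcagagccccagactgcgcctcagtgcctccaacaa
Cxcl3: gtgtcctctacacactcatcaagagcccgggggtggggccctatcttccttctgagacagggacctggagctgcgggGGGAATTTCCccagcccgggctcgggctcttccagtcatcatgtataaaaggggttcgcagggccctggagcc
Each of the 3 sequences held GGGAATTTCC, at positions -71 to -62 from the start site in Cxcl1, -97 to -88 in Cxcl2 and -73 to -64 in Cxcl3. Cxcl1 had an additional match at -89 to -80 and Cxcl2 at -78 to -69. Searched on both strands over the 250 bases before the start, the pattern matched in 3 of the 9 genes with a window and in 1.41% of all 32851 promoter windows. The 3 genes lie in 1 cluster, so these are not 3 independent cases. A second pattern searched, named GAS (TTC and GAA with any 3 bases between them), matched in 0 of the 9 genes and in 7.02% of all windows. Positions count from the RefSeq start, which lies some bases from the GENCODE start. A match is a run of letters only, and binding was not measured.

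The libraries held between 15759300 and 17559680 counts on genes, and 3 counts, taken as the floor for a gene at 0, equalled 0.169 to 0.188 CPM (counts scaled to library size with TMM factors; counting error only). Apart from IFN-γ tumor 3, each tumor held the highest of the 6 values in 12.8% to 18.8% of the 15114 genes tested. Each held the lowest in 13.8% to 18.8%. For IFN-γ tumor 3 these shares were larger, at 22.0% and 21.3%. Without it, the genes called higher in the IFN-γ group went from 0.0794% to 2.46% of those tested, and the genes called lower from 0.0331% to 0.723%, by edgeR at an adjusted p under 0.05. Of 8 epithelial markers, 3 passed the low-count filter. Cdx2 had 0 counts in every tumor, Krt8 ranged from 0.186 to 12.1 CPM and Krt18 from 6.41 to 10.4 CPM.

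Of the 10 genes, 8 passed the low-count filter and 0 passed the adjusted threshold with all 6 tumors, where 0.0794% of all genes tested were called higher and 0.0331% lower. DESeq2 and limma-voom also called 0, and 2 of the 8, Csf3r and Cxcl3, had an unadjusted p under 0.05 in edgeR, against 5.74% of all genes tested with a higher and 4.44% with a lower value at that p. Fold changes pointed upward for 6 genes and downward for 2, where 50.4% of all genes tested pointed upward. Their median log2 fold change was 0.54, beside 0.0015 over all genes tested, and 0.67 for the same 8 genes without IFN-γ tumor 3. Over the genes tested in each case, it was 0.15 without IFN-γ tumor 2 and 0.29 without control tumor 2. Those fits tested 4 of the neutrophil genes, against 3 with all 6 tumors, so their medians cover a different set of genes. Cxcl1, Cxcl2, Cxcl5 and Csf3r were at their highest in IFN-γ tumors 1 and 2, Cxcl3 was lower in every IFN-γ tumor, and S100a8 and S100a9 were at their highest in control tumor 1 and IFN-γ tumor 3.

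**Figure D1:**
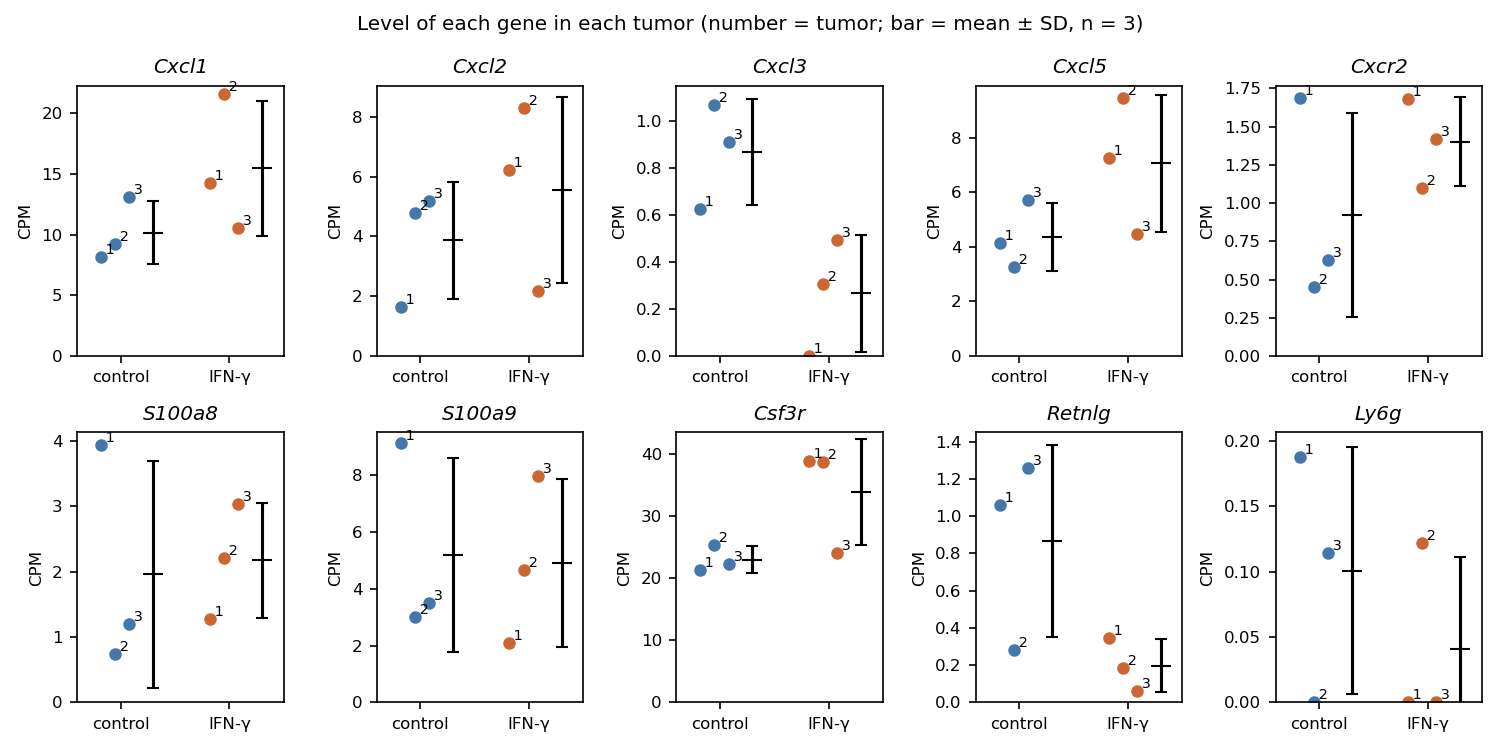
Level of each of the 10 genes in CPM (vertical axes from 0, separate for each gene) in the 3 control tumors (blue) and the 3 IFN-γ tumors (orange). Numbers give the tumor, black bars the mean and SD (n = 3); the lower SD bar of the IFN-γ group for Ly6g is clipped at 0. Cxcl3 is the gene tested whose groups do not overlap.

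Cxcl1, known in the mouse as KC, was the most abundant of the 4 ligands per length. It had 131, 164 and 229 counts in control tumors 1, 2 and 3, or 8.19, 9.25 and 13.1 CPM. In IFN-γ tumors 1, 2 and 3 it had 246, 353 and 171 counts, or 14.3, 21.6 and 10.6 CPM. IFN-γ tumors 1 and 2 lay above all controls, whereas IFN-γ tumor 3 lay inside the control range. Control tumors averaged 10.2 ± 2.58 CPM and IFN-γ tumors 15.5 ± 5.59 CPM (SD, n = 3 each). With a log2 fold change of 0.60 and a standard error of 0.28, the difference did not pass edgeR's quasi-likelihood test (adjusted p = 0.51). It was 0.80 ± 0.23 (standard error) once IFN-γ tumor 3 was left out (edgeR adjusted p = 0.12), and 0.29 when tumor 2 of that group was left out instead.

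Cxcl5, the ligand known as LIX, followed the same order among the IFN-γ tumors. Its level was 4.13, 3.27 and 5.71 CPM under PBS, against 7.26, 9.47 and 4.45 CPM after IFN-γ. IFN-γ tumor 3 again fell among the controls. This gave a log2 fold change of 0.69 ± 0.32 (standard error; edgeR adjusted p = 0.50), and one of 0.93 ± 0.26 without that tumor (edgeR adjusted p = 0.11). Leaving out IFN-γ tumor 2 lowered it to 0.42 (edgeR adjusted p = 0.90). Cxcl1 and Cxcl5 kept a count ratio of 1.97 to 2.83 over the 6 tumors.

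Cxcl2, or MIP-2, varied more than either gene within both groups. It was at 1.63, 4.79 and 5.20 CPM under PBS, against 6.21, 8.31 and 2.16 CPM after IFN-γ. The highest and the lowest tumor differed 3.20-fold among controls and 3.84-fold in the IFN-γ group. Control tumor 1 and IFN-γ tumor 3 were the lowest of their groups. With all tumors the log2 fold change was 0.52 ± 0.53 (standard error; edgeR adjusted p = 0.80). It was 0.89 when IFN-γ tumor 3 was dropped and 0.11 when tumor 2 was.

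Cxcl3 went the other way. The controls had 10, 19 and 16 counts and the tumors given IFN-γ 0, 5 and 8, so 58 reads in all. In CPM these were 0.625, 1.07 and 0.914 against 0, 0.305 and 0.495, and the 0 allows up to 0.174 CPM. Of the 8 genes tested, 1 (Cxcl3) had all IFN-γ tumors below all controls and 0 had them above, beside 7.5% and 7.62% of all genes tested. Its log2 fold change was -1.71 ± 0.72 (standard error), with an unadjusted p of 0.044 and an adjusted p of 0.47 in edgeR. It stayed below 0 when each tumor was left out in turn, from -2.50 without IFN-γ tumor 3 to -1.11 without IFN-γ tumor 1.

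The count of Cxcl1 per Cxcl3 read was 13.1, 8.63 and 14.3 in the controls and 70.6 and 21.4 in IFN-γ tumors 2 and 3, with no Cxcl3 read in IFN-γ tumor 1. On the log2(CPM + 0.5) scale this ratio was 2.95 ± 0.32 for the controls and 4.38 ± 0.78 after IFN-γ (SD, n = 3 each). The two-sided exact permutation test gave p = 0.1, the smallest that 3 against 3 tumors allow, and 0.6 after Benjamini-Hochberg adjustment over the 6 ratios examined. The ratio of Cxcl1 to Cxcl2 differed between the groups by 0.12 (exact permutation p = 0.7) and that of Cxcl1 to Cxcl5 by -0.057 (exact permutation p = 1.0). Cxcl2 and Cxcl3 share stretches of transcript. Of the 50-base windows of Cxcl2, 5.84% also occurred in other genes, in each case Cxcl3, and how the authors' counting treated such reads is not given in the sources used here.

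**Figure D2:**
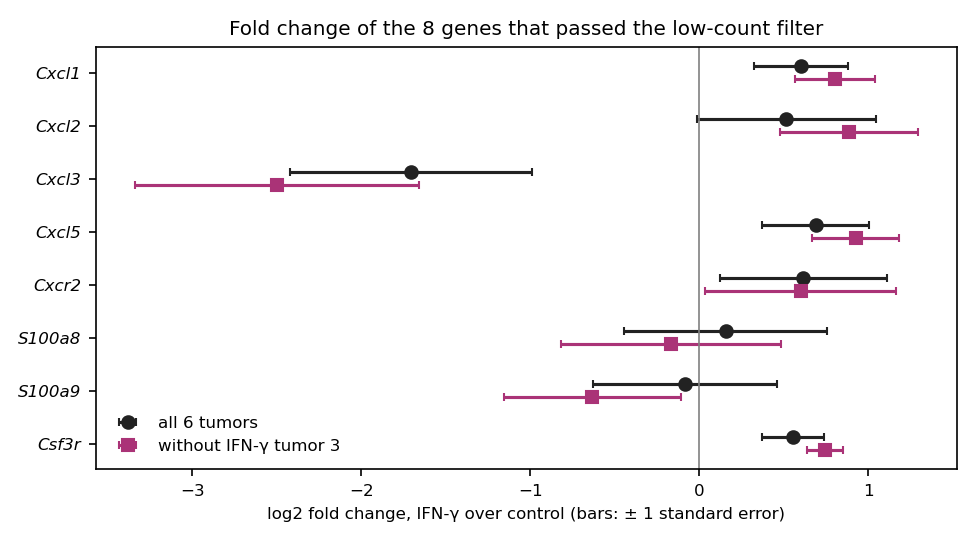
Log2 fold change of IFN-γ over control (horizontal axis) with ± 1 standard error for the 8 genes tested, in all 6 tumors (circles) and without IFN-γ tumor 3 (squares). Cxcl1, Cxcl2, Cxcl5 and Csf3r lie above 0 in both fits and Cxcl3 below 0 in both, at -1.71 and -2.50.

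Cxcr2, the receptor of these ligands, was scarce, with 116 reads over the 6 tumors. The controls had 27, 8 and 11 counts and the tumors given IFN-γ 29, 18 and 23, or 1.69, 0.451 and 0.629 against 1.68, 1.10 and 1.42 CPM. Control tumor 1 was as high as the highest IFN-γ tumor, and the other two controls were below every IFN-γ tumor. Its difference of 0.62 ± 0.49 on the log2 scale (standard error; edgeR adjusted p = 0.74) became 1.37 without control tumor 1 (adjusted p = 0.66, edgeR) and 0.29 without control tumor 2. Control tumor 1, the highest of the 6 for Cxcr2, was the lowest for both Cxcl1 and Cxcl2.

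Csf3r, the receptor for granulocyte colony-stimulating factor, had the most reads of the 10 genes. The controls had 341, 450 and 390 counts, against 669, 633 and 388 after IFN-γ. Scaled to CPM, the controls lay close together at 21.3, 25.4 and 22.3, and IFN-γ tumors 1 and 2 at 38.8 and 38.7. IFN-γ tumor 3, at 24.0 CPM, was within the control range. With all 6 tumors the log2 fold change was 0.56 ± 0.18 (standard error), at an unadjusted p of 0.015 and an adjusted p of 0.37 in edgeR. Without IFN-γ tumor 3 it was 0.74 ± 0.11 (edgeR adjusted p = 0.014), and Csf3r was then the only 1 of the genes past the threshold. In that fit, 2.46% of all genes tested were called higher. In Csf3r, 10.5% of the 50-base transcript windows also occurred in other genes.

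S100a8 and S100a9, the calprotectin subunits, differed more within groups than between them. S100a8 had 63, 13 and 21 counts under PBS and 22, 36 and 49 after IFN-γ, or 3.94, 0.733 and 1.20 against 1.28, 2.20 and 3.03 CPM. S100a9 was at 9.13, 2.99 and 3.49 CPM under PBS, against 2.09, 4.64 and 7.98 CPM after IFN-γ. For both genes, control tumor 1 was the highest of the 6 tumors and IFN-γ tumor 3 the next. Their log2 fold changes were 0.16 (standard error 0.60, adjusted p = 0.96, edgeR) and -0.082 (standard error 0.54, adjusted p = 0.98, edgeR). The sign depended on single tumors. Without IFN-γ tumor 3 the values were -0.17 and -0.63, and without control tumor 1 they were 1.16 and 0.60. The count ratio of S100a9 to S100a8 stayed between 1.64 and 4.08 across the tumors.

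The same pair of tumors held the most keratinocyte transcripts. Krt14, a keratin of basal epidermis, had 62 counts in control tumor 1 and 537 in IFN-γ tumor 3, and between 3 and 8 in the other tumors. Krt5, its partner, had 48 and 266 counts there and at most 2 elsewhere. Krt5 and Krt6a were singled out after their values were seen. Of the 12 keratinocyte markers, 3 were tested and 0 called by edgeR with all 6 tumors, with 1, Trp63, at an unadjusted p under 0.05. Trp63, a transcription factor of basal epithelium, had another order, at 2.0, 2.54 and 2.91 CPM under PBS and 5.28, 6.48 and 2.72 CPM after IFN-γ. It was called higher without IFN-γ tumor 3 (log2 fold change 1.23, adjusted p = 0.039, edgeR). The 12 markers summed to 7.60 to 17.2 CPM in the controls and to 9.47 to 107 CPM in the IFN-γ group, and Lor and Sprr1b had reads in IFN-γ tumor 3 only. Krt6a, the keratin of stressed and wounded epidermis, was at 0.938 CPM in control tumor 1 and 14.3 in IFN-γ tumor 3, with 0 counts in the others. The part of skin in the S100a8 and S100a9 values was not tested. With both tumors left out, S100a8 had 0.83 on the log2 fold scale (adjusted p = 0.51, edgeR) and S100a9 0.042 (adjusted p = 0.98, edgeR), while Csf3r stood at 0.69 (adjusted p = 0.037, edgeR).

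**Figure D3:**
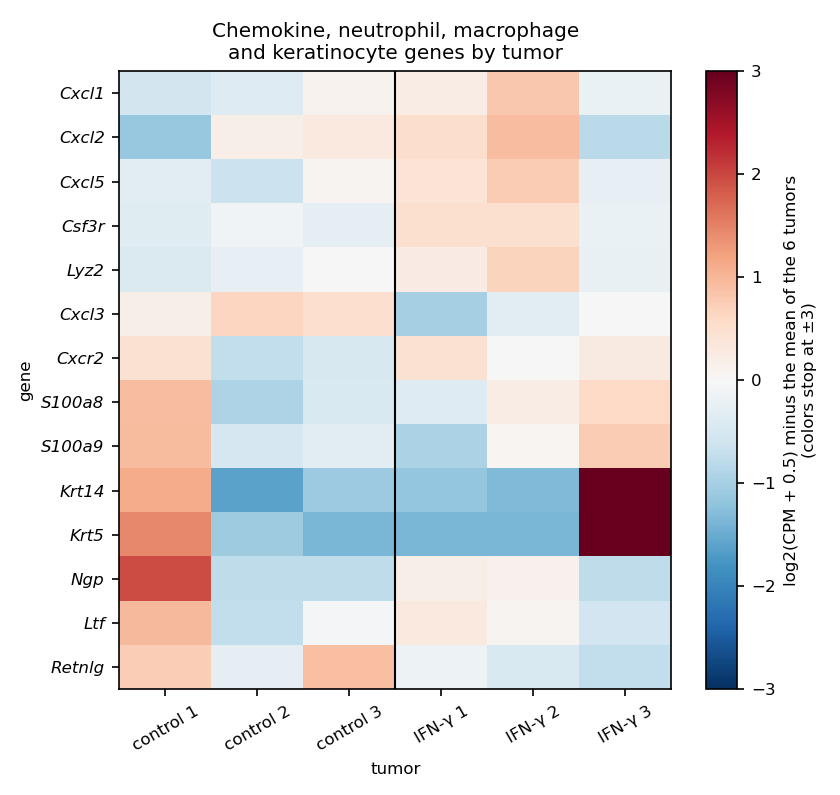
Log2(CPM + 0.5) of 14 genes (rows) in each of the 6 tumors (columns), minus the mean of the 6 tumors, with colors that stop at ±3. Cxcl1, Cxcl2, Cxcl5 and Csf3r share their high tumors, IFN-γ 1 and 2, with the myeloid gene Lyz2, and S100a8 and S100a9 share control 1 and IFN-γ 3 with the keratins Krt14 and Krt5.

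The genes most particular to neutrophils had few reads. Ly6g had 3, 0 and 2 counts under PBS and 0, 2 and 0 after IFN-γ, 7 reads in all, and no value exceeded 3 counts. Retnlg had 17, 5 and 22 counts under PBS and 6, 3 and 1 after IFN-γ. It averaged 0.867 ± 0.516 CPM in controls and 0.198 ± 0.144 CPM after IFN-γ (SD, n = 3 each; two-sided exact permutation p = 0.2, smallest possible 0.1). Control tumor 2, at 0.282 CPM, lay below IFN-γ tumor 1, at 0.348 CPM. Neither gene passed the low-count filter. With no filter, Retnlg had a log2 fold change of -2.08 ± 0.69 (standard error; edgeR adjusted p = 0.23).

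Compared per kilobase of exons, the levels ran in the order S100a9 (9.68 CPM per kb, mean of 6 tumors), Csf3r (7.87), Cxcl1 (6.84), Cxcl5 (3.07), S100a8 (2.97), Cxcl2 (2.28), Retnlg (0.898), Cxcr2 (0.381), Cxcl3 (0.163) and Ly6g (0.0750). The ranges over the 6 tumors overlapped for every pair of neighbors in this order. The order also depends on the length used. For Cxcl1, Cxcl2 and Cxcl3 the exon union (1.875, 2.068 and 3.498 kb) equals the whole span of the gene. For S100a9 it is 0.522 kb, a part of the span. Levels of these chemokines may therefore be understated beside S100a9. On the same scale, the macrophage genes Adgre1 and Csf1r stood at 67.5 and 52.2 CPM per kb, Lyz2, the lysozyme of myeloid cells, at 1707, and the mast cell protease Cpa3 at 56.9. Ly6g, the defining neutrophil marker, was the lowest of the 10. The 2 highest by the lengths used here, S100a9 and Csf3r, are not particular to neutrophils.

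**Figure D4:**
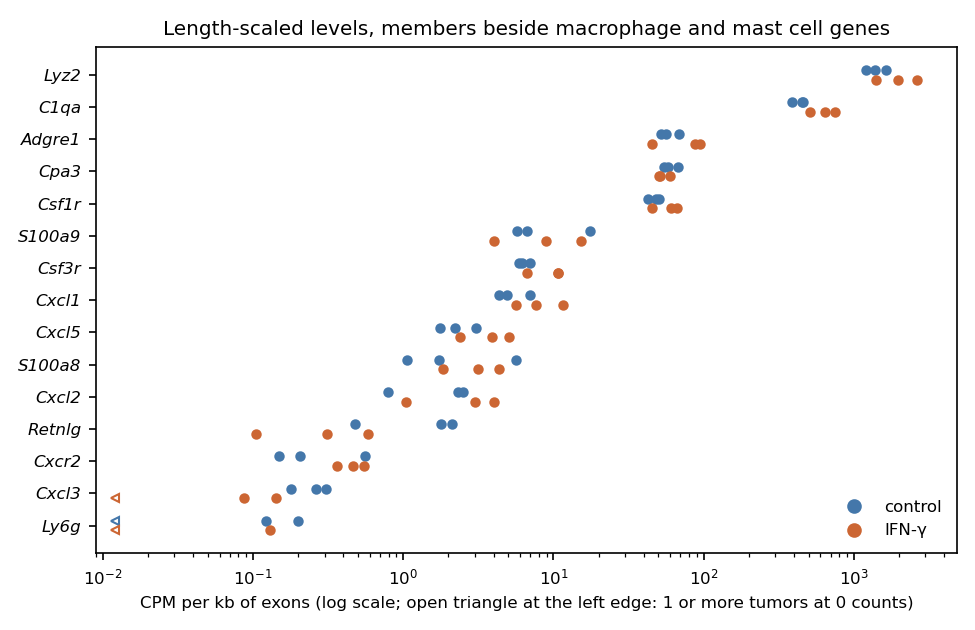
CPM per kb of exons (horizontal axis, log scale) of the 10 genes, 4 macrophage genes and the mast cell gene Cpa3, 1 point per tumor, with control tumors in blue and IFN-γ tumors in orange. Open triangles at the left edge mark 1 or more tumors of a group at 0 counts; Ly6g is the lowest gene and Lyz2 the highest.

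Of 14 granule protein genes, 7 were tested, 3 of them had a log2 fold change above 0, and 0 passed the threshold in edgeR, DESeq2 and limma-voom, with a median of -0.44. Elane and Mpo, the proteases and peroxidase of primary granules, had 3 and 13 reads in all 6 tumors together. Mmp9, a gelatinase of neutrophils and macrophages, was at 49.2, 18.0 and 25.2 CPM under PBS and 17.4, 20.1 and 10.9 CPM after IFN-γ (log2 fold change -0.93, adjusted p = 0.44, edgeR). Without control tumor 1 it was -0.42, and -0.21 without that tumor and IFN-γ tumor 3. Lcn2, a siderophore-binding protein, was at 3.44, 4.51 and 3.31 against 3.77, 6.29 and 8.41 CPM (log2 fold change 0.71, adjusted p = 0.48, edgeR). Ngp, Camp and Ltf, proteins of secondary granules singled out after their values were seen, had 45 of 60, 11 of 15 and 21 of 50 reads in control tumor 1. S100a8, S100a9 and Mmp9 were also at their highest there. Cxcr2, Mpo and Ly6g were highest there by a margin too small to read. Cxcr2 was at 1.69 CPM there and 1.68 CPM in IFN-γ tumor 1, and Mpo had 6 counts in each of these tumors. Ly6g had 3 counts there and 2 each in control tumor 3 and IFN-γ tumor 2. The other granule genes were highest elsewhere. Prtn3, Mmp8, Chil3 and Padi4 peaked in control tumor 3 and Elane and Cd177 in IFN-γ tumor 1. Ctsg and Pglyrp1 peaked in IFN-γ tumor 2 and Lcn2 in IFN-γ tumor 3. Retnlg was highest in control tumor 3, and Csf3r was lowest in control tumor 1.

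Of 24 other genes of mature neutrophils, 23 were in the table and 14 were tested, 9 with a log2 fold change above 0, and 0 passed the threshold in edgeR, DESeq2 and limma-voom. Fpr2, a formyl peptide receptor, was at 9.44, 15.1 and 13.5 against 22.0, 22.5 and 11.3 CPM (log2 fold change 0.55, adjusted p = 0.55, edgeR), again with IFN-γ tumor 3 among the controls, and it was 0.80 without that tumor (edgeR adjusted p = 0.062). Cxcr1, the second receptor of this chemokine class, had 1 read and Mrgpra2a 0. The list with Cxcr1 also held Cxcl15, with 1 read, and Ppbp, a platelet gene as well, with 79. Pf4, the platelet factor also made by macrophages, was on that list but is not taken here as a ligand of Cxcr2. Pf4 changed by -0.26 on the log2 scale (adjusted p = 0.70, edgeR).

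Of 23 listed signals that raise or attract neutrophils, 18 were tested and 6 had a log2 fold change above 0, with a median of -0.04. With all 6 tumors, 0 passed in edgeR and limma-voom, and 1, the leukotriene enzyme Alox5, was called lower by DESeq2 (adjusted p = 0.028). DESeq2 called 67 of all 15114 genes tested lower. Csf3, the granulocyte growth factor, had 11 reads in all, and Il17a had 0, a limit of 0.188 CPM at the lowest depth. The 2 most abundant, Lta4h, an enzyme of leukotriene synthesis, and Il1r1, the interleukin-1 receptor, had log2 fold changes of -0.16 and -0.30 (adjusted p = 0.53 and 0.36, edgeR). Of 12 feedback genes of NF-κB, 0 passed in edgeR, DESeq2 and limma-voom with all 6 tumors, and 7 had a log2 fold change above 0. The 2 most abundant, the NF-κB subunit Nfkb2 and the TNF-induced Tnfaip2, stood at -0.045 and -0.30 (edgeR adjusted p = 0.90 and 0.28). Without IFN-γ tumor 3, Nfkbia, the NF-κB inhibitor, was the single gene of that list past the threshold (log2 fold change 0.43, adjusted p = 0.036, edgeR). That fit called 2.46% of all genes tested higher.

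The CXCR3 ligands, which are induced by interferon-γ and attract T cells, had the same tumor order as Cxcl1 at the top. Cxcl9 was at 118, 290 and 210 CPM under PBS and at 466, 557 and 165 CPM after IFN-γ (log2 fold change 0.94, adjusted p = 0.52, edgeR), and at 1.30 without IFN-γ tumor 3 (adjusted p = 0.052, edgeR). Cxcl10 had log2 fold changes of 0.42 and 0.75 in the 2 fits, with adjusted p of 0.75 and 0.087 (edgeR). None of the 4 genes of this list passed the threshold in either fit, and Cxcl9 passed without control tumor 1 and IFN-γ tumor 3 (log2 fold change 1.02, adjusted p = 0.034, edgeR).

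Of 12 monocyte and macrophage markers, 10 had IFN-γ tumors 1 and 2 above every control, as did Cxcl1, Cxcl2, Cxcl5 and Csf3r. The exceptions were Mrc1, a mannose receptor, which was lower in every IFN-γ tumor than in any control (log2 fold change -0.22, adjusted p = 0.44, edgeR), and the monocyte antigen Ly6c2. The share of all genes tested with IFN-γ tumors 1 and 2 above every control was not computed. Without that share, the counts give no measure of likeness to macrophage genes. The same order held in 3 of 4 genes of the CXCR3 list, 5 of 7 red cell markers and 7 of 23 other genes of mature neutrophils. It held in 4 of 12 NF-κB feedback genes, 3 of 14 granule protein genes and 2 of 23 neutrophil signals. Keratinocyte markers had it in 1 of 12 and epithelial markers in 1 of 8. Mast cell, platelet and eosinophil markers had it in 0 of 6 each, and the list of Cxcr1, Cxcl15, Ppbp, Pf4 and Ackr1 in 0 of 5. All 12 monocyte and macrophage markers were tested, and 11 had a log2 fold change above 0, with a median of 0.49. With all 6 tumors, edgeR and limma-voom called 0, DESeq2 called 2 higher (C1qa and C1qb) and edgeR without a low-count filter called 3 higher (C1qa, C1qb and Ccr2). Without IFN-γ tumor 3, edgeR called 7 higher. Over all genes, these fits called more than the main fit, which called 12 of 15114 higher. DESeq2 called 121 of 15114 higher and edgeR without the filter 150 of 26868. Without IFN-γ tumor 3, 381 of 15487 (2.46%) were called higher. The summed level of the 12 markers was 3506 to 4242 CPM in the controls and 3863 to 6505 CPM in the IFN-γ group, with IFN-γ tumor 3 the lowest of its group. Lyz2 was at 1593, 1814 and 2168 CPM under PBS and at 2582, 3463 and 1856 CPM after IFN-γ (log2 fold change 0.50, adjusted p = 0.47, edgeR), and at 0.69 without IFN-γ tumor 3 (adjusted p = 0.047, edgeR). C1qa, a complement subunit of macrophages, was at 404, 468 and 479 against 670, 780 and 534 CPM (log2 fold change 0.55, edgeR adjusted p = 0.26). Its adjusted p was 0.011 in DESeq2, 0.017 in edgeR without the filter and 0.016 in edgeR without IFN-γ tumor 3. The part of macrophage content in the chemokine and Csf3r values was not tested.

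The genes closest to 3 members over the 6 tumors were sought among all genes tested, by Pearson's r of log2(CPM + 0.5), as a description without a test. For Cxcl1 they included 1600010M07Rik, Inpp5j, Fam13a and Gabra3 (r = 0.994 to 0.989). For Cxcr2 they included Gm49376 (r = 0.994), Pttg1, Kctd7 and Gm10182 (r = 0.986 to 0.981), and for S100a9 they were Manbal, Chmp1a, Gm11836, Maoa and Nip7 (r = 0.995 to 0.984). The 6 points behind each value share their libraries and depth.

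Markers of other cells in the tissue gave this picture. Red cell markers, of which 5 of 7 were tested and 0 called, summed to 10.8 to 29.7 CPM in the controls and 14.7 to 57.2 CPM in the IFN-γ group, and Hbb-bs differed by 1.04 on the log2 scale (edgeR adjusted p = 0.54), and by 1.45 without IFN-γ tumor 3, where it was called higher (edgeR adjusted p = 0.048). IFN-γ tumors 1 and 2 were again the highest, at 52.7 and 57.2 CPM. Platelet markers, with 3 of 6 tested and Gp6 at 0, summed to 24.8 to 31.9 and 19.6 to 27.2 CPM. Eosinophil markers, with 2 of 6 tested and Epx and Ear6 at 0, did not exceed a sum of 2.97 CPM, and the 6 mast cell markers summed to 305 to 431 and 340 to 421 CPM. The 2 most abundant eosinophil markers, Ccr3 and Siglecf, had log2 differences of -0.63 and -0.90 (edgeR adjusted p = 0.53 and 0.76). Those of the red cell gene Hba-a1, the platelet genes Itga2b and Ppbp, the keratin Krt10 and the mast cell protease Mcpt4 were 0.88, 0.082, -0.058, 0.45 and 0.062 (edgeR adjusted p from 0.63 to 0.99). With all 6 tumors, the red cell, platelet, eosinophil and mast cell lists held 0 genes past the threshold in edgeR, DESeq2 and limma-voom, and 1 gene, of the red cell list, at an unadjusted p under 0.05 in edgeR.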

How the data were processed

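RNA-seq covered 6 tumors, 3 per group, for which the authors deposited raw counts by Ensembl gene. The submitters' processing notes list HISAT2 and mm10. The counting program and the strandedness are not given in the sources used here, so overlapping or repeated sequence could shift counts between genes. Scaling used TMM factors, for CPM as for the test. Groups were compared by the quasi-likelihood test of edgeR 4.0.16 in R 4.3.3, after its default low-count filter, and p-values were adjusted after Benjamini-Hochberg over the 15114 genes tested (threshold 0.05). The standard error was the log2 fold change divided by the square root of F. Exact permutation tests compared single values between groups. Levels per kilobase used the exon union of GENCODE M21. DESeq2 1.42.0, limma 3.58.1 (voom), other scalings and filters, a replicate block and fits without single tumors were the alternatives. Scripts were tested on simulated counts. The fit without control tumor 1 and IFN-γ tumor 3 was chosen after seeing the data.

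The 10 genes and the gene lists were chosen with earlier results of these data known. Named genes were the 10 members, genes of each list past the threshold or among the 2 most abundant, and the 5 genes closest to Cxcl1, Cxcr2 and S100a9. Other genes named were chosen after their values were seen. Some genes that this rule names are not reported here.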

Additional observations from a re-analysis of the deposited data

How the results depend on the processing

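Over all genes, edgeR called 12 higher and 5 lower after IFN-γ. The numbers higher were 7 with library size only, 121 with DESeq2, 150 without a low-count filter and 5 with the replicate number as a block. The numbers lower were 67 with DESeq2, 3 with limma-voom, 70 with no filter and 2 with the replicate block. Fits that each left out 1 tumor gave from 4 to 381 higher and from 2 to 112 lower, with the most without IFN-γ tumor 3. Without control tumor 1 and IFN-γ tumor 3 they were 178 and 40. Of the 10 genes described, 0 were called higher, 0 to 1 when 1 tumor was left out (Csf3r, without IFN-γ tumor 3) and 1 without control tumor 1 and IFN-γ tumor 3. None was called lower in any fit run. Their median log2 fold change ranged from 0.15 (without IFN-γ tumor 2) to 0.68 (without control tumor 1 and IFN-γ tumor 3) over the fits run. The genes tested also differed between fits, which bears on the median. Apart from the tumors and genes used, the cause was not tested.
The same replicate numbers did not mark tumors that deviated together (correlations of -0.21, -0.014 and -0.21), so they were not taken as pairs, and the replicate block changed no call among the 10 genes.
Of 110 comparisons for the 8 genes tested, 102 kept direction and side of the threshold, 2 passed it only under the alternative and 6 reversed. Fits that each left out 1 tumor ranged from -0.24 to 1.16 for S100a8, -0.63 to 0.60 for S100a9, -0.12 to 0.23 for Itga2b, -0.58 to 0.83 for Krt10, -0.11 to 0.26 for Mcpt4 and -0.29 to 0.30 for Ppbp. S100a8 reversed to -0.24 without control tumor 2, -0.10 without control tumor 3 and -0.17 without IFN-γ tumor 3. S100a9 reversed to 0.60 without control tumor 1, 0.28 without IFN-γ tumor 1 and 0.042 without control tumor 1 and IFN-γ tumor 3. Among 27 other named genes, 9 of 375 comparisons gained a call and 8 reversed. The gains were Alox5 and C1qa with DESeq2, C1qa with no filter, C1qa, Hbb-bs, Lyz2 and Nfkbia without IFN-γ tumor 3, and C1qa and Cxcl9 without control tumor 1 and IFN-γ tumor 3. The reversals were Itga2b (-0.12 without IFN-γ tumor 3 and -0.12 also without control tumor 1), Krt10 (-0.58 and -0.43 in the same fits), Mcpt4 (-0.11 without control tumor 3, -0.075 without IFN-γ tumor 3) and Ppbp (0.15 without control tumor 2, 0.30 without IFN-γ tumor 1). Cxcl3 (58 reads), Retnlg (54) and Ly6g (7) are limited by depth.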

Other observations

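Enzymes that make mediators of granulocytes and mast cells showed 2 patterns, both picked after their values were seen. Alox5, the 5-lipoxygenase of leukotriene synthesis, was at 12.9, 12.4 and 13.5 CPM in the control tumors and at 7.08, 9.59 and 6.80 CPM in the IFN-γ tumors, without overlap. This is -0.73 ± 0.17 (standard error) as a log2 fold change, with an adjusted p of 0.23 in edgeR. Hdc, the enzyme that makes histamine, was at 7.50, 6.82 and 6.91 against 8.18, 10.2 and 11.6 CPM (log2 fold change 0.50, adjusted p = 0.39, edgeR). With all 6 tumors, neither gene passed the threshold in edgeR, and Alox5 passed in DESeq2 (adjusted p = 0.028). Groups without overlap occurred in 7.5% of the genes tested with the IFN-γ group lower and in 7.62% with it higher.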
